A study of Mus musculus with 4 samples.

Results

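Id1, Id2, Id3, Id4, Msx1, Msx2, Smad6, Smad7 and Bambi are genes commonly used to read bone morphogenetic protein (BMP) signalling, and their levels are described here in single cells of the embryonic mouse telencephalic midline. The 9 genes were chosen by name from the 21936 genes of the count matrices. The study dissected, from both hemispheres, the cortical hem with its surroundings, which take in Cajal-Retzius cells and part of the hippocampal primordium. Each of the 4 groups is 1 single-cell RNA library, made with 10x Chromium 3' chemistry from pooled male embryos. The mutant genotype is Lmx1aCre::Ai9::b-cat gof (E11.5 gof and E14.5 gof) and its control is Lmx1aCre::Ai9 (E11.5 control and E14.5 control). The series text gives 5 male embryos for the E11.5 libraries and 3 for the E14.5 libraries, and does not say whether these are numbers per library. Both genotypes carry the Lmx1aCre driver, which acts where Lmx1a has been expressed, as in the hem and choroid plexus lineage, and the Ai9 reporter, which makes tdTomato after recombination. They differ in the b-cat gof allele, a gain-of-function allele of beta-catenin, the transducer of canonical Wnt signalling. With 1 pool per group, the genotype cannot be told apart from the pool, the dissection or the library, so no test was possible and no p-value is given.

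BMP ligands bind paired receptor kinases that phosphorylate Smad1, Smad5 and Smad9, which enter the nucleus with Smad4 and switch on a compact set of direct targets. The Id proteins are helix-loop-helix factors without a DNA-binding domain that sequester E proteins and so hold back neuronal differentiation, and Msx1 and Msx2 are homeobox repressors of the dorsal midline. Smad6, Smad7 and Bambi are negative feedback parts of the pathway: the first is an inhibitory Smad that acts mainly on BMP signals, Smad7 an inhibitory Smad that acts on BMP and TGF-beta signals, and Bambi a pseudoreceptor that lacks the kinase domain. In the dorsal telencephalon BMPs are made by the roof plate, choroid plexus and hem, next to Wnt ligands, and Id, Msx and Bambi genes can also respond to Wnt signals.

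All 9 genes are annotated as protein coding in GENCODE M21 on GRCm38. Msx2 lies at chr13:53466884-53473074 and Smad6 at chr9:63953076-64022059. Id1 lies at chr2:152736251-152737410, Id2 at chr12:25093799-25097140, Id3 at chr4:136143497-136145755, Id4 at chr13:48261228-48266026 and Msx1 at chr5:37820485-37824583.

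RefSeq promoter windows of GRCm38.p6 were at hand for 6 of the 9 genes (Id2, Id3, Id4, Msx1, Msx2 and Smad6). The 3 whose 250 bases before the start lie wholly outside the annotated gene are shown, and they differ in the motifs of Smad-binding elements they hold. They are chr13:48260866-48261115 on the plus strand for Id4, chr5:37824586-37824835 on the minus strand for Msx1 and chr9:64022060-64022309 on the minus strand for Smad6, each read 5′ to 3′ towards the gene. Capitals mark the motif GGCGCC and the motif GGAGCC, each on either strand.
Id4: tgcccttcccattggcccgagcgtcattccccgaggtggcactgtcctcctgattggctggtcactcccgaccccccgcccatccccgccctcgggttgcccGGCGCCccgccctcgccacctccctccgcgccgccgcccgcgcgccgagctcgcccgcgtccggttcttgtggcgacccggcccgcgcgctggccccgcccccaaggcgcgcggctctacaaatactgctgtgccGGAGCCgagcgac
Msx1: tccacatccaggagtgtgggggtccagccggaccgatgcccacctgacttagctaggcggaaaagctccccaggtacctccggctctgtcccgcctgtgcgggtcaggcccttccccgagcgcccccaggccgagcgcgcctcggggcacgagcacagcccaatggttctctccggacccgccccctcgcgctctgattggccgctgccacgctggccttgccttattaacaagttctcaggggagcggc
Smad6: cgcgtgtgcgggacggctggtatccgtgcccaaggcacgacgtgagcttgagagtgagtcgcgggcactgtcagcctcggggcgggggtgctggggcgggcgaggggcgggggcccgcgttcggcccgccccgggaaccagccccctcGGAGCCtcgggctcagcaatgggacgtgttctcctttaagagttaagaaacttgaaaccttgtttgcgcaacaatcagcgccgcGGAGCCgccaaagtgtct
The Id4 window held 1 GGCGCC, which starts 148 bases before the RefSeq start at the window's end, and 1 GGAGCC, and the Smad6 window held 2 GGAGCC. No searched motif was in the Msx1 window. Among the windows not shown, Id2 had 1 of each motif, Id3 had 1 GGAGCC and Msx2 had 2 GGAGCC. GTCTAGAC was in none of the 6. Over all 32851 windows of this length, 9.59% held GGCGCC, 26% held GGAGCC and 0.167% held GTCTAGAC, each searched on both strands. The members' own windows were counted among them.

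Smad7 and Bambi lie at chr18:75367529-75395935 and chr18:3507923-3516404.

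The matrices held 59594082 UMIs (unique molecular identifiers, each a counted transcript molecule) in 8677 barcodes for E11.5 gof and 78732126 in 7578 for E11.5 control. They held 93988703 in 6263 for E14.5 gof and 113821989 in 7844 for E14.5 control. After filtering, E11.5 gof kept 7024 cells (median 5644 UMIs) and E11.5 control 6510 (8172.5), and E14.5 gof kept 5317 (14072) and E14.5 control 6606 (12885.5). Between 12 and 18 cell barcodes were shared by any pair of libraries. Cells were placed by how many markers of fixed sets they held, so each class is a range on a count and not a discrete type: the mesenchymal-like gate needed 4 of 12 markers, and at E11.5 91 gof and 55 control cells sat exactly at that limit and 94 gof and 81 control cells 1 marker below it. The hem-like gate needed 5 of 9, with 317 gof and 431 control cells at the limit and 481 gof and 552 control cells 1 below it at E11.5. Neural cells numbered 5039 in E11.5 gof, 5319 in E11.5 control, 5138 in E14.5 gof and 6436 in E14.5 control. Mesenchymal-like cells were 16.5% of E11.5 gof cells and 8.59% of E11.5 control cells, and they held a median of 7 of their 12 markers in gof and 8 in control, and of 0 of the 8 neural progenitor markers in both. The allele was read from 7 Wnt feedback genes (Axin2, Lef1, Nkd1, Notum, Sp5, Dkk1 and Wif1): in tdTomato-positive neural cells they summed to 1086 CPM in E11.5 gof and 376 CPM in E11.5 control, and to 2385 CPM in E14.5 gof and 512 CPM in E14.5 control. In tdTomato-negative neural cells they summed to 252 CPM in both E11.5 libraries, and to 161 CPM in E14.5 gof and 360 CPM in E14.5 control. CPM scale a gene's UMIs to the total UMIs of the summed cells; they come from a 3' assay and are not scaled by gene length, so they are compared between cells and not between genes. Ranges in parentheses after a level are its exact 95% Poisson interval, and they cover counting error only.

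In neural cells at E11.5, Id1 and Id3 were the members that stood furthest apart between the genotypes, both lower in gof. Id1 had 74.5 CPM (71.7 to 77.5) in E11.5 gof and 232 CPM (228 to 236) in E11.5 control, 3.08-fold lower. Id3 had 917 CPM (907 to 927) in E11.5 gof and 1843 CPM (1832 to 1854) in E11.5 control, 2.01-fold lower. Id2 and Id4, the remaining Id genes, were lower by less: Id2 had 113 CPM in gof and 147 CPM in control, and Id4 had 125 CPM in gof and 162 CPM in control, log2 ratios of -0.39 and -0.37. The counting intervals were apart for all 4 Id genes.

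The Msx genes did not follow Id1 and Id3 at this age. Msx1 had 43.7 CPM (41.5 to 46.0) in E11.5 gof neural cells and 38.5 CPM (36.8 to 40.2) in E11.5 control neural cells, and Msx2 had 12.5 CPM (11.4 to 13.8) in gof and 13.9 CPM (12.9 to 14.9) in control, which overlap. Of the feedback genes, Smad6 was 1.52-fold lower, with 10.9 CPM in gof and 17.2 CPM in control. Smad7 (15.5 CPM in gof, 19.4 CPM in control) and Bambi (28.3 CPM in gof, 39.1 CPM in control) were lower by less than 1.5-fold. Past 1.5-fold, 0 of the 9 members were higher and 3 were lower (Id1, Id3 and Smad6), where, among the 8268 genes that reached 10 CPM in one of the libraries, 3.52% were higher and 3.12% lower. The members' median log2 ratio was -0.39, and that of all genes tested was -0.08. With a pseudocount of 5 CPM, median-ratio scaling or the stricter barcode filter, Smad6 came within 1.5-fold. Cells with 3 or fewer mesenchymal markers are in this sum, and the 12 mesenchymal markers together had 82.7 CPM in gof and 61 CPM in control neural cells, against 5528 CPM in gof and 5003 CPM in control mesenchymal-like cells; their part in the Msx1 values was not tested. The mix of neural classes also differed, with hem-like cells 8.49% of kept cells in gof and 15.1% in control, and with the same class shares given to both libraries the log2 ratios were -1.54 for Id1, -0.94 for Id3, -0.53 for Smad6 and 0.44 for Msx1. Over all kept cells of E11.5, mesenchymal-like ones included, Msx1 had 124 CPM in gof and 90.2 CPM in control, and 0 members were higher and 4 lower of 9 (Id1, Id3, Id4 and Smad6), beside 4.39% and 4.01% of genes. Relative to the median of all genes, -0.11, Id4 was at -0.52 and Smad6 at -0.50, both within 1.5-fold.

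**Figure D1:**
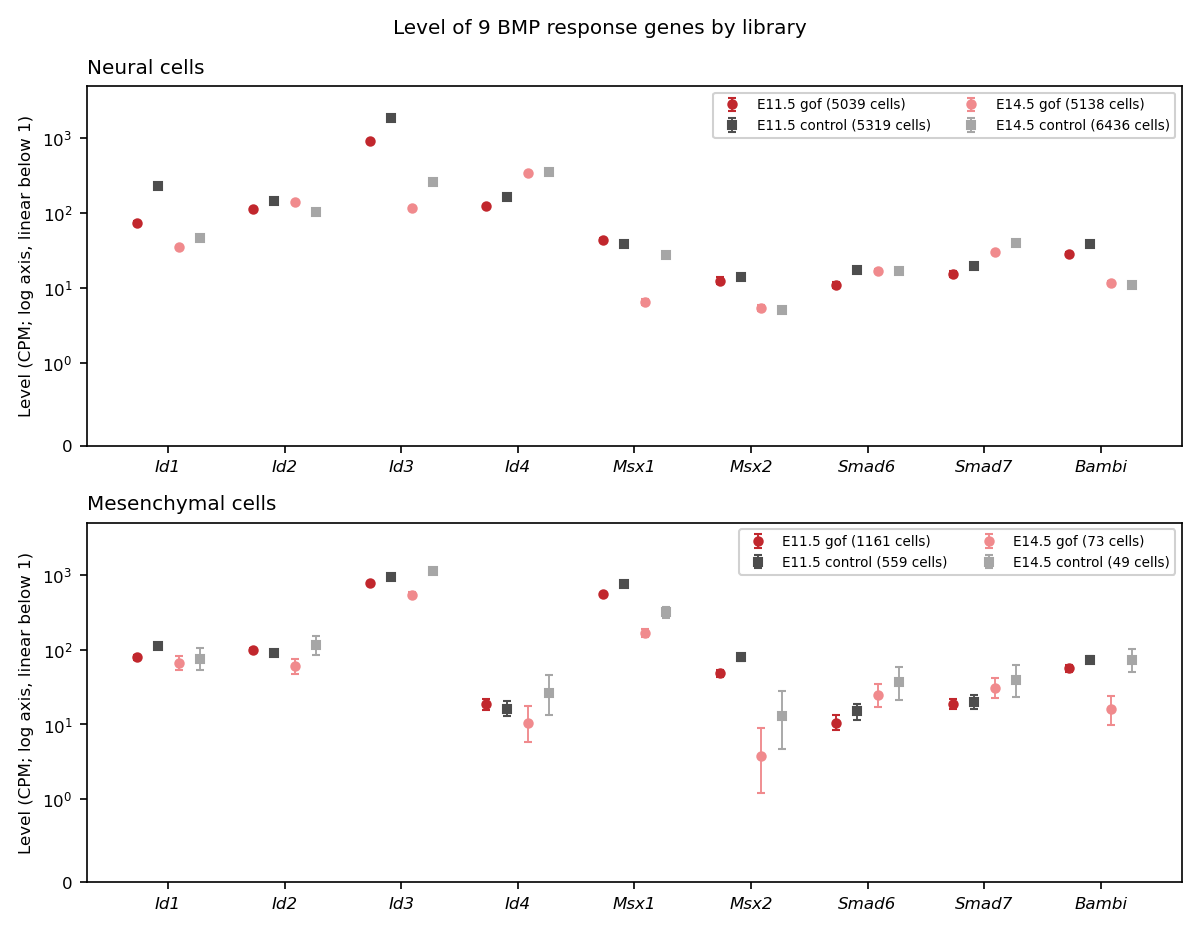
Level of the 9 genes (CPM, log axis that is linear below 1) in neural cells (top) and mesenchymal-like cells (bottom) of the 4 libraries, gof as circles and control as squares; bars are exact 95% Poisson intervals. In neural cells Id1 and Id3 sit lower in E11.5 gof than in E11.5 control, and Msx1 sits at 6.47 CPM in E14.5 gof against 27.5 CPM in E14.5 control.

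The plot of levels by library shows both ages side by side. In its neural panel the E11.5 distance between gof and control is wide for Id1 and Id3 and narrow for Msx1 and Msx2, while at E14.5 the wide distances are those of Id3 and Msx1. In its mesenchymal panel the widest distance is that of Msx2 at E11.5 and that of Bambi at E14.5.

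The lower Id1 and Id3 of E11.5 gof were found in cells with and without the reporter. Cells with 2 or more tdTomato UMIs (248 gof and 483 control neural cells, median depths 10463.5 and 12715 UMIs) had 149 CPM of Id1 in gof and 409 CPM in control, and 1646 CPM of Id3 in gof and 2779 CPM in control. Cells with 0 tdTomato UMIs (4271 gof and 4269 control neural cells, 5269 and 7823 UMIs) had 59.2 CPM of Id1 in gof and 192 CPM in control, and 769 CPM of Id3 in gof and 1612 CPM in control. The log2 ratio of Id1 was -1.45 in tdTomato-positive and -1.68 in tdTomato-negative cells, and that of Id3 -0.76 in tdTomato-positive and -1.07 in tdTomato-negative cells, a difference that was not tested. Bambi was past the limit in tdTomato-positive cells, with 61.1 CPM in gof and 93.6 CPM in control, and Smad6 in tdTomato-negative cells, with 9.64 CPM in gof and 15.5 CPM in control. Msx1 was level in tdTomato-positive cells, with 118 CPM (106 to 131) in gof and 119 CPM (112 to 127) in control. In tdTomato-positive cells 0 members were higher and 3 lower of 9, beside 5.69% and 6.81% of 8643 genes, and in tdTomato-negative cells 0 higher and 3 lower of 8, beside 3.98% and 3.13% of 8214 genes. Relative to the median of all genes, Bambi was at -0.53 in tdTomato-positive cells and Smad6 at -0.56 in tdTomato-negative cells, both within 1.5-fold, and Msx1 at 0.60 in tdTomato-negative cells, just past it. The mix of tdTomato-positive cells differed too, with hem-like cells 108 of the 248 gof and 339 of the 483 control cells. Among their marker sums, hem markers had 1923 CPM in gof and 3043 CPM in control. Intermediate progenitor markers had 359 CPM in gof and 201 CPM in control. Values within tdTomato-positive hem-like cells are given with the classes below. A cell with 0 tdTomato UMIs may still carry the recombined allele, since detection depends on depth.

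Among the marker-gated classes at E11.5, Id1 was lower in gof in each of the 6 neural groups compared, and by most in pallial progenitor-like cells (cells with progenitor markers and none of the regional or neuronal gates). There Id1 had 31.9 CPM in gof and 189 CPM in control, and Id3 had 558 CPM in gof and 1658 CPM in control, log2 ratios of -2.53 and -1.57. Id2 (76.6 CPM in gof, 130 CPM in control) and Smad6 (9.49 CPM in gof, 15.9 CPM in control) were also past the limit, so 4 of 7 members tested were lower, with 0 higher, beside 4.38% of genes lower and 4.3% higher. Of this class, 32 of the 1496 gof cells and 32 of the 1919 control cells had 2 or more tdTomato UMIs.
In hem-like cells, the signalling edge of the cortex, Id1 had 191 CPM in gof and 426 CPM in control and Id4 had 44.3 CPM in gof and 77.7 CPM in control, while Id3 (2238 CPM in gof, 3135 CPM in control) stayed within 1.5-fold. The 2 lower calls of 9 stand beside 3.85% of genes. Msx1 was level in these cells, with 102 CPM in gof and 103 CPM in control. In the tdTomato-positive hem-like cells, 108 in gof and 339 in control, Id1 had 167 CPM in gof and 450 CPM in control and Id3 2034 CPM in gof and 3064 CPM in control, the 2 lower and 0 higher calls of 9 beside 7.67% and 5.56% of genes.
Intermediate progenitor-like cells, the dividing precursors of cortical neurons, had 43.7 CPM of Id1 in gof and 183 CPM in control, 229 CPM of Id3 in gof and 727 CPM in control, and 95 CPM of Id4 in gof and 221 CPM in control. Smad7 stood the other way in them, with 34.5 CPM in gof and 20 CPM in control (log2 ratio 0.76). These are 1 higher and 3 lower calls of 6 members tested, beside 7.46% and 13.1% of genes. Diencephalic-like cells, which lie outside the pallium, showed the same pair: Id1 had 23.5 CPM in gof and 61.8 CPM in control, and Id3 had 531 CPM in gof and 1274 CPM in control, the 2 lower calls of 5 tested, with 0 higher, beside 6.92% and 7.37% of genes.
Of Cajal-Retzius-like cells, a class of early neurons, 14 of 241 in gof and 13 of 213 in control had 2 or more tdTomato UMIs. In the whole class Id1 had 13 CPM in gof and 56.7 CPM in control, and Id3 had 137 CPM in gof and 294 CPM in control. Bambi had 12 CPM in gof and 3.11 CPM in control, and Msx1 15.7 CPM in gof and 8.54 CPM in control, but the counting intervals of both pairs overlapped. Past the limit 2 members were higher and 3 lower of 7, beside 9.85% and 12.2% of genes. Neural cells outside these classes had 56.4 CPM of Msx1 in gof and 26.1 CPM in control and a log2 ratio of 1.22 for Msx2. Id1 in them had 72.2 CPM in gof and 167 CPM in control, 2 members were higher and 3 lower of 9, beside 5.48% and 4.63% of genes. In erythroid-like cells, which should lack these genes, Msx1 had a log2 ratio of 1.21 and Msx2 of 0.46. Both were under 10 CPM in both libraries there. Ambient RNA was not removed, and its part in the Msx values was not tested.

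**Figure D2:**
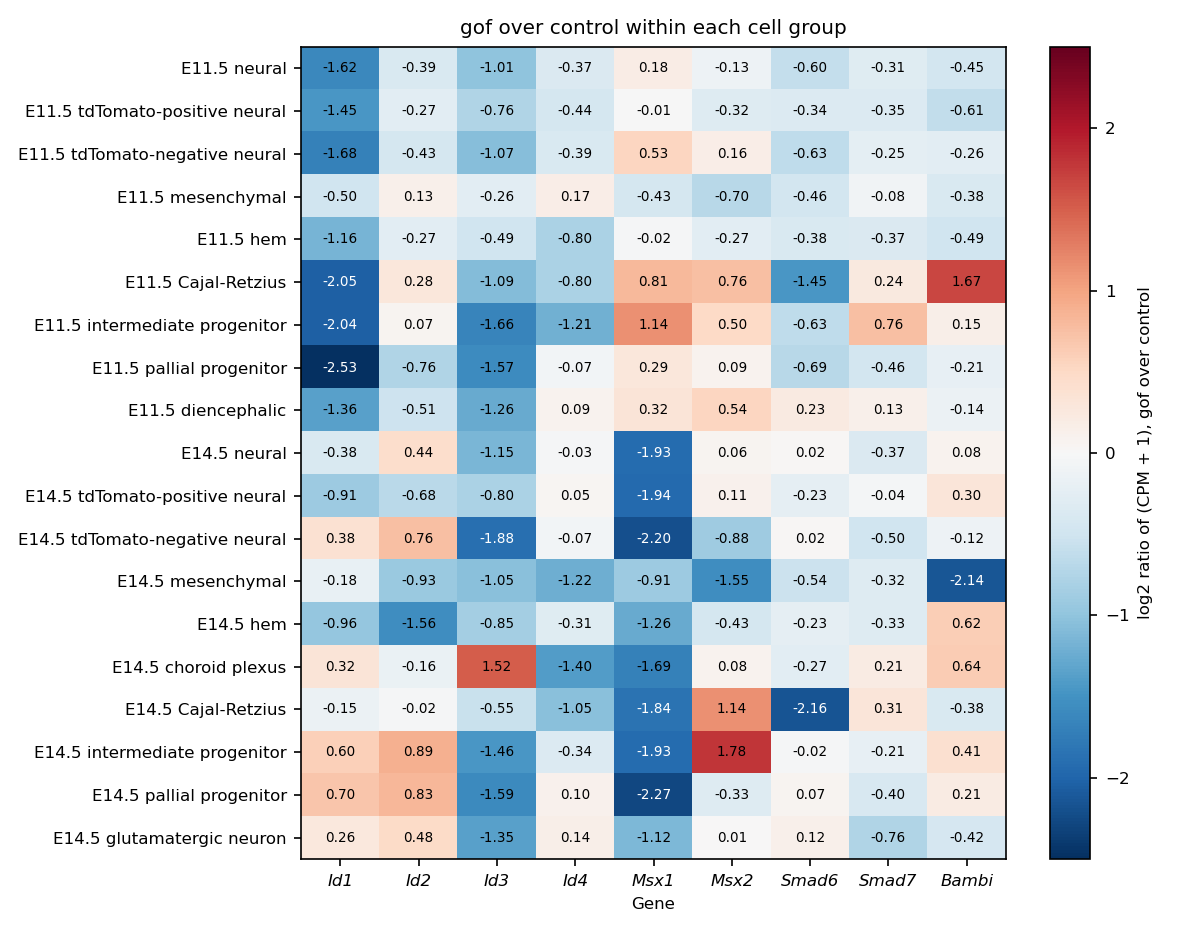
Log2 ratio of (CPM + 1), gof over control, of each gene (columns) in each group of cells (rows, with age and marker-gated class); red is higher and blue lower in gof, and the number is the ratio. The Id1 column is blue through all E11.5 groups and mixed at E14.5, and the Msx1 column is blue through all E14.5 groups; ratios of genes below 10 CPM in both libraries are drawn but were not counted.

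In that grid the Id1 column runs from -2.53 to -0.50 over the E11.5 groups, and the Msx1 column from -2.27 to -0.91 over the E14.5 groups. The groups are not independent, since the tdTomato groups and classes are parts of the neural cells.

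Mesenchymal-like cells, the head mesenchyme beside the neural tissue, had 1 member past 1.5-fold between the E11.5 libraries, Msx2. Msx1 had 551 CPM (534 to 568) in E11.5 gof and 743 CPM (717 to 769) in E11.5 control, and Msx2 had 48.5 CPM (43.6 to 53.7) in gof and 79.6 CPM (71.5 to 88.4) in control. Id1 had 79 CPM in gof and 112 CPM in control, and Id3 had 779 CPM in gof and 936 CPM in control. Msx2 was lower in gof, so 1 of 9 members was lower and 0 were higher, beside 4.52% and 3.5% of 8401 genes. Bambi had 56.1 CPM in gof and 73.3 CPM in control, Smad6 10.6 CPM in gof and 15 CPM in control, and Smad7 18.9 CPM in gof and 20 CPM in control. All genes tested had a median log2 ratio of -0.12 in these cells, and relative to it Msx2 was at -0.58, Id1 at -0.37, Msx1 at -0.31 and Id3 at -0.14. With that scaling Msx2 came within 1.5-fold. Few of these cells carried the reporter: 9 of 1161 in gof and 0 of 559 in control, which allows a control share of up to 0.658% (exact 95% bound), had 2 or more tdTomato UMIs.

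At E14.5 the neural cells stood apart between genotypes in Id3 and Msx1, both lower in gof. Msx1 had 6.47 CPM (5.93 to 7.06) in E14.5 gof and 27.5 CPM (26.5 to 28.6) in E14.5 control, 3.82-fold lower. Id3 had 116 CPM (114 to 118) in gof and 258 CPM (255 to 261) in control, 2.21-fold lower. Id1 had 35.4 CPM in gof and 46.3 CPM in control, and Id2 had 141 CPM in gof and 103 CPM in control, both within 1.5-fold. Id4, Smad6 and Bambi were level, with log2 ratios of -0.03, 0.02 and 0.08, and Msx2, with 5.36 CPM in gof and 5.09 CPM in control, was under the limit of 10 CPM. Smad7 had 30.2 CPM in gof and 39.4 CPM in control. Of 8 members tested 0 were higher and 2 lower, beside 2.91% and 8.26% of 9680 genes, and their median log2 ratio was -0.20, that of all genes -0.09. Hem-like, choroid plexus-like and Cajal-Retzius-like cells were 3.86%, 1.45% and 1.97% of gof cells and 6.9%, 1.83% and 6.34% of control cells. Given the same class shares, Msx1 was at -1.64, Id3 at -1.05 and Id1 at -0.08. Over all kept cells the same 2 members were lower and 0 higher of 8, beside 8.1% and 3.04% of genes. Immediate early and stress genes, listed as a possible sign of handling, also differed between the libraries. Their 10 genes summed to 630 CPM in gof and 1060 CPM in control neural cells of E14.5. At E11.5 they summed to 355 CPM in gof and 437 CPM in control neural cells, and to 805 CPM in gof and 656 CPM in control mesenchymal-like cells. The part of these handling genes in the results was not tested.

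tdTomato-positive neural cells at E14.5 (1016 gof and 1084 control cells) had 4 of 9 members lower and 0 higher, beside 16.6% and 6.88% of 10199 genes. Msx1 had 21.9 CPM in gof and 86.8 CPM in control, Id1 85.2 CPM in gof and 161 CPM in control, Id2 88.4 CPM in gof and 142 CPM in control, and Id3 326 CPM in gof and 567 CPM in control. The median of all genes was -0.13, and relative to it these 4 were at -1.81, -0.79, -0.56 and -0.67 on the log2 scale, so Id2 was within 1.5-fold on that scaling. Msx2 was level, with 21.5 CPM in gof and 19.8 CPM in control. Marker sums differed with this comparison: hem markers had 1289 CPM in gof and 3099 CPM in control, choroid plexus markers 712 CPM in gof and 2264 CPM in control, Cajal-Retzius markers 329 CPM in gof and 1744 CPM in control, and the handling genes 615 CPM in gof and 1237 CPM in control. Cajal-Retzius-like cells were 87 of the gof and 310 of the control cells. With the same class shares 3 members were lower (Id1 at -0.59, Id3 at -0.62 and Msx1 at -1.56) and 0 higher, beside 13.9% and 6.86% of genes, and Id2 was at -0.52. The part of the handling genes was not tested.
In tdTomato-negative neural cells (3409 gof and 4459 control cells) Id2 stood the other way, with 159 CPM in gof and 93.7 CPM in control. Id3 had 47.7 CPM in gof and 178 CPM in control, and Msx1 had 1.5 CPM in gof and 10.5 CPM in control. Of 7 members tested 1 was higher and 2 were lower, beside 1.91% and 7.58% of 9403 genes. Msx1 reached 10 CPM in control alone, so it could be called lower but not higher. Markers differed here too: intermediate progenitor markers summed to 705 CPM in gof and 1173 CPM in control, glutamatergic markers to 1778 CPM in gof and 1234 CPM in control, hem markers to 85.9 CPM in gof and 199 CPM in control, Cajal-Retzius markers to 101 CPM in gof and 202 CPM in control, and handling genes to 628 CPM in gof and 1011 CPM in control. Their part in these values was not tested.

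Within classes at E14.5, the Id genes past 1.5-fold were not called alike in hem-like and pallial progenitor-like cells. In choroid plexus-like and Cajal-Retzius-like cells the counts of calls lay near the shares over all genes. In hem-like cells Id1 had 198 CPM in gof and 386 CPM in control, Id2 69.6 CPM in gof and 207 CPM in control, Id3 803 CPM in gof and 1451 CPM in control, and Msx1 47.2 CPM in gof and 114 CPM in control. Bambi stood the other way, with 35.4 CPM in gof and 22.7 CPM in control. These are 1 higher and 4 lower of 9 members, beside 7.44% and 15.8% of genes.
Choroid plexus-like cells, the secretory epithelium of the midline, had 822 CPM of Id3 in gof and 285 CPM in control, higher in gof by 1.52 on the log2 scale, and 50.1 CPM of Bambi in gof and 31.9 CPM in control. Msx1 in them had 105 CPM in gof and 341 CPM in control, and Id4 21.4 CPM in gof and 58.2 CPM in control. The 2 higher and 2 lower calls of 9 stand beside 20.8% and 27% of genes, and these 77 gof cells held a median of 6 of the 12 choroid plexus markers where the 121 control cells held 9.
Pallial progenitor-like cells had 33.4 CPM of Id1 in gof and 20.2 CPM in control, 101 CPM of Id2 in gof and 56.4 CPM in control, and 106 CPM of Id3 in gof and 323 CPM in control. Msx1 had 2.2 CPM in gof and 14.4 CPM in control, while Id4 had 634 CPM in gof and 592 CPM in control, within 1.5-fold. The calls were 2 higher and 2 lower of 8, beside 2.83% and 9.77% of genes. Of this class, 8.87% of gof and 2.77% of control cells had 2 or more tdTomato UMIs. Msx1 reached 10 CPM in control alone, so it could not be called higher. Intermediate progenitor-like cells gave the same 4 calls: Id1 had 20.2 CPM in gof and 13 CPM in control, Id2 125 CPM in gof and 67.2 CPM in control, Id3 35.2 CPM in gof and 98.7 CPM in control, and Msx1 2.2 CPM in gof and 11.2 CPM in control, beside 5.23% of genes higher and 9.26% lower. In the tdTomato-positive cells of this class (245 gof and 111 control cells) Id1 and Id2 had the other sign, with 28.6 CPM of Id1 in gof and 42 CPM in control and 82.8 CPM of Id2 in gof and 101 CPM in control, both within 1.5-fold and with overlapping intervals. Msx2 in them had 29.5 CPM in gof and 5.7 CPM in control and Bambi 21 CPM in gof and 11.4 CPM in control, the 2 higher calls beside 10.7% of genes, with Id3 and Msx1 the 2 lower calls of 9 beside 17.5%; the intervals of Bambi overlapped.
In glutamatergic neuron-like cells Id3 (17.3 CPM in gof, 45.7 CPM in control) and Smad7 (23.8 CPM in gof, 41.1 CPM in control) were lower, 2 of 5 tested, with 0 higher, beside 7.18% and 2.7% of genes. In Cajal-Retzius-like cells Msx2 had 18.6 CPM in gof and 7.85 CPM in control, Msx1 4.79 CPM in gof and 19.7 CPM in control, and Id4 40.7 CPM in gof and 85.4 CPM in control. That is 1 higher and 2 lower of 8, beside 12% and 19.6% of genes, from 105 gof and 419 control cells.

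Mesenchymal-like cells at E14.5 were few, 73 in gof and 49 in control. The control number is under the 50 cells asked of a class, so the values are given with that limit. Bambi had 15.9 CPM (9.84 to 24.3) in gof and 73.7 CPM (51.0 to 103) in control, Id3 545 CPM (505 to 586) in gof and 1131 CPM (1036 to 1232) in control, and Msx1 167 CPM (146 to 191) in gof and 316 CPM (267 to 372) in control. Id2, Id4 and Msx2 also counted as lower, 6 of 9 in all, beside 24.2% of 9929 genes, but the intervals of Id4 and Msx2 overlapped. Markers of other cells moved with this comparison: the 9 hem markers summed to 164 CPM in gof and 388 CPM in control, the 8 neural progenitor markers to 134 CPM in gof and 230 CPM in control, and the 7 Wnt feedback genes to 197 CPM in gof and 568 CPM in control. Their part in the result was not tested.

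Within each library, most members differed by more than 1.5-fold between reporter-positive and reporter-negative neural cells. In E11.5 gof 7 of 9 were higher in tdTomato-positive cells and Id4 was lower, beside 9.41% and 3.84% of genes, and in E11.5 control the same 7 were higher and Id4 lower, beside 7.79% and 2.61% of genes. Msx1 had 118 CPM in tdTomato-positive and 29.3 CPM in tdTomato-negative cells of E11.5 gof, and 119 CPM in tdTomato-positive and 20 CPM in tdTomato-negative cells of E11.5 control. Bambi had 61.1 CPM in tdTomato-positive and 21.8 CPM in tdTomato-negative cells of E11.5 gof, and 93.6 CPM in tdTomato-positive and 26.3 CPM in tdTomato-negative cells of E11.5 control. Id4 was lower with the reporter in both: 45.9 CPM in tdTomato-positive and 142 CPM in tdTomato-negative cells of E11.5 gof, and 62.8 CPM in tdTomato-positive and 187 CPM in tdTomato-negative cells of E11.5 control.
At E14.5 Id2 set the genotypes apart: it had 88.4 CPM in tdTomato-positive and 159 CPM in tdTomato-negative cells of gof, and 142 CPM in tdTomato-positive and 93.7 CPM in tdTomato-negative cells of control. In E14.5 gof 6 members were higher (Id1, Id3, Msx1, Msx2, Smad7 and Bambi) and 2 lower (Id2 and Id4), beside 12.3% and 5.86% of genes, and in E14.5 control 6 were higher (Id1, Id2, Id3, Msx1, Msx2 and Bambi) and Id4 lower, beside 13.7% and 5.38% of genes. Msx2 had 21.5 CPM in tdTomato-positive and 0.144 CPM in tdTomato-negative cells of E14.5 gof, and 19.8 CPM in tdTomato-positive and 1.1 CPM in tdTomato-negative cells of E14.5 control. Id1 had 85.2 CPM in tdTomato-positive and 19.6 CPM in tdTomato-negative cells of E14.5 gof, and 161 CPM in tdTomato-positive and 14.8 CPM in tdTomato-negative cells of E14.5 control. The reporter marks classes as well as recombination: with the same class shares on both sides, 4 members were higher and 1 lower in E11.5 gof, beside 9.13% and 4.27% of genes, and 3 higher and 1 lower in E11.5 control, beside 4.38% and 1.38%. In E14.5 gof 4 were then higher and 1 lower, beside 10% and 3.76%, and in E14.5 control 4 higher and 0 lower, beside 3.28% and 0.501%, with Msx2 among the higher in all 4 libraries. Only classes with at least 20 cells on both sides entered these shares. In E14.5 gof this left out hem-like, choroid plexus-like and Cajal-Retzius-like cells. These had 11, 3 and 6 tdTomato-negative and 181, 74 and 87 tdTomato-positive cells. In E14.5 control it left out choroid plexus-like cells. In both E11.5 libraries only hem-like, pallial progenitor-like and other neural cells entered. In bulk sums of this kind, fewer cells of a type and less RNA per cell cannot be told apart.

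**Figure D3:**
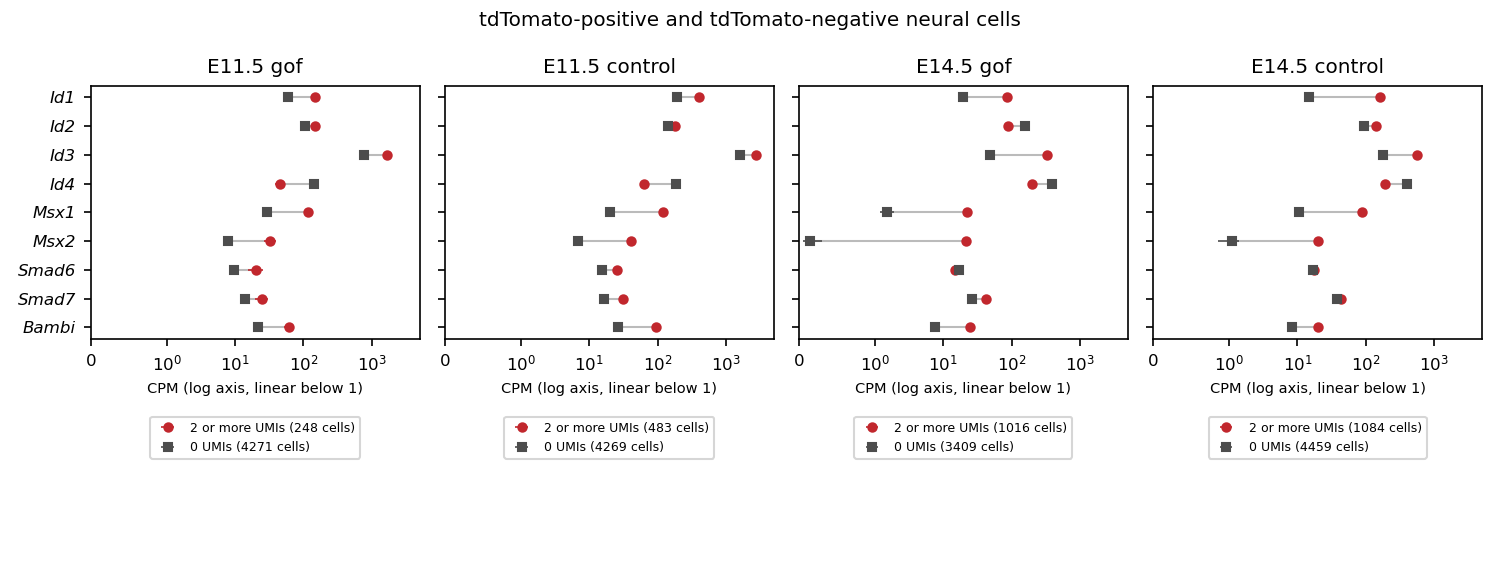
Level (CPM, log axis that is linear below 1) of the 9 genes in neural cells with 2 or more tdTomato UMIs (red circles) and with 0 (grey squares) of each library; bars are exact 95% Poisson intervals and grey lines join the pair. Msx1, Msx2 and Bambi lie higher with the reporter in all 4 libraries and Id4 lower, and Id2 changes side between the E14.5 libraries.

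The plot of reporter-positive against reporter-negative cells also shows the spread of the pairs. The spread is narrowest for Id2 at E11.5 and for Smad6 at E14.5, and it is among the widest for Msx1 and Msx2 in every library. Median depths of tdTomato-positive and tdTomato-negative cells were 10463.5 and 5269 UMIs in E11.5 gof, 12715 and 7823 in E11.5 control, 15805.5 and 13279 in E14.5 gof, and 13554.5 and 12542 in E14.5 control.

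tdTomato-positive neural cells were further parted by how many of the 7 Wnt feedback genes they held with a UMI, 4 or more against fewer. This split reads the same cells' depth too, so depths are given. It may also part the cell classes, whose mix on each side was not compared. In E14.5 gof the 680 cells with 4 or more (median 15381.5 UMIs) had 31.2 CPM of Msx2 and the 336 with fewer (17319.5 UMIs) had 3.2 CPM. Id4 had 81.6 CPM in cells with 4 or more and 422 CPM in cells with fewer, and Id2 had 56.2 CPM in cells with 4 or more and 149 CPM in cells with fewer. Smad7 had 48.9 CPM in cells with 4 or more and 29.1 CPM in cells with fewer. Here 6 members were higher (Id1, Id3, Msx1, Msx2, Smad7 and Bambi) and 3 lower (Id2, Id4 and Smad6), beside 13.4% and 14.2% of genes.
In E14.5 control the 282 cells with 4 or more (19147.5 UMIs) had 35.1 CPM of Msx2 and the 802 with fewer (12740.5 UMIs) had 11.3 CPM, and Id4 had 234 CPM in cells with 4 or more and 169 CPM in cells with fewer. Of 9 members 6 were higher and 0 lower, beside 13.8% and 11.3% of genes. In E11.5 gof the 141 cells with 4 or more (12212 UMIs) had 139 CPM of Msx1 and the 107 with fewer (8003 UMIs) had 78.8 CPM. Msx2 had 40.4 CPM in cells with 4 or more and 16.7 CPM in cells with fewer, and 3 members were higher and 1 lower, beside 10.9% and 8.88% of genes. In E11.5 control the split gave 1 higher member, Id4, with 83.8 CPM in 98 cells with 4 or more (23501 UMIs) and 52 CPM in 385 with fewer (10971 UMIs), and 0 lower, beside 4.44% and 1.43% of genes. Id4 stood lower in Wnt-feedback-high cells of both gof libraries and not of the controls, a difference that was not tested. Among others, the tdTomato-positive neural cells of E14.5 gof held 181 hem-like, 245 intermediate progenitor-like, 115 glutamatergic neuron-like and 97 pallial progenitor-like cells. The part of this class mix in the Id4 values was not tested.

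**Figure D4:**
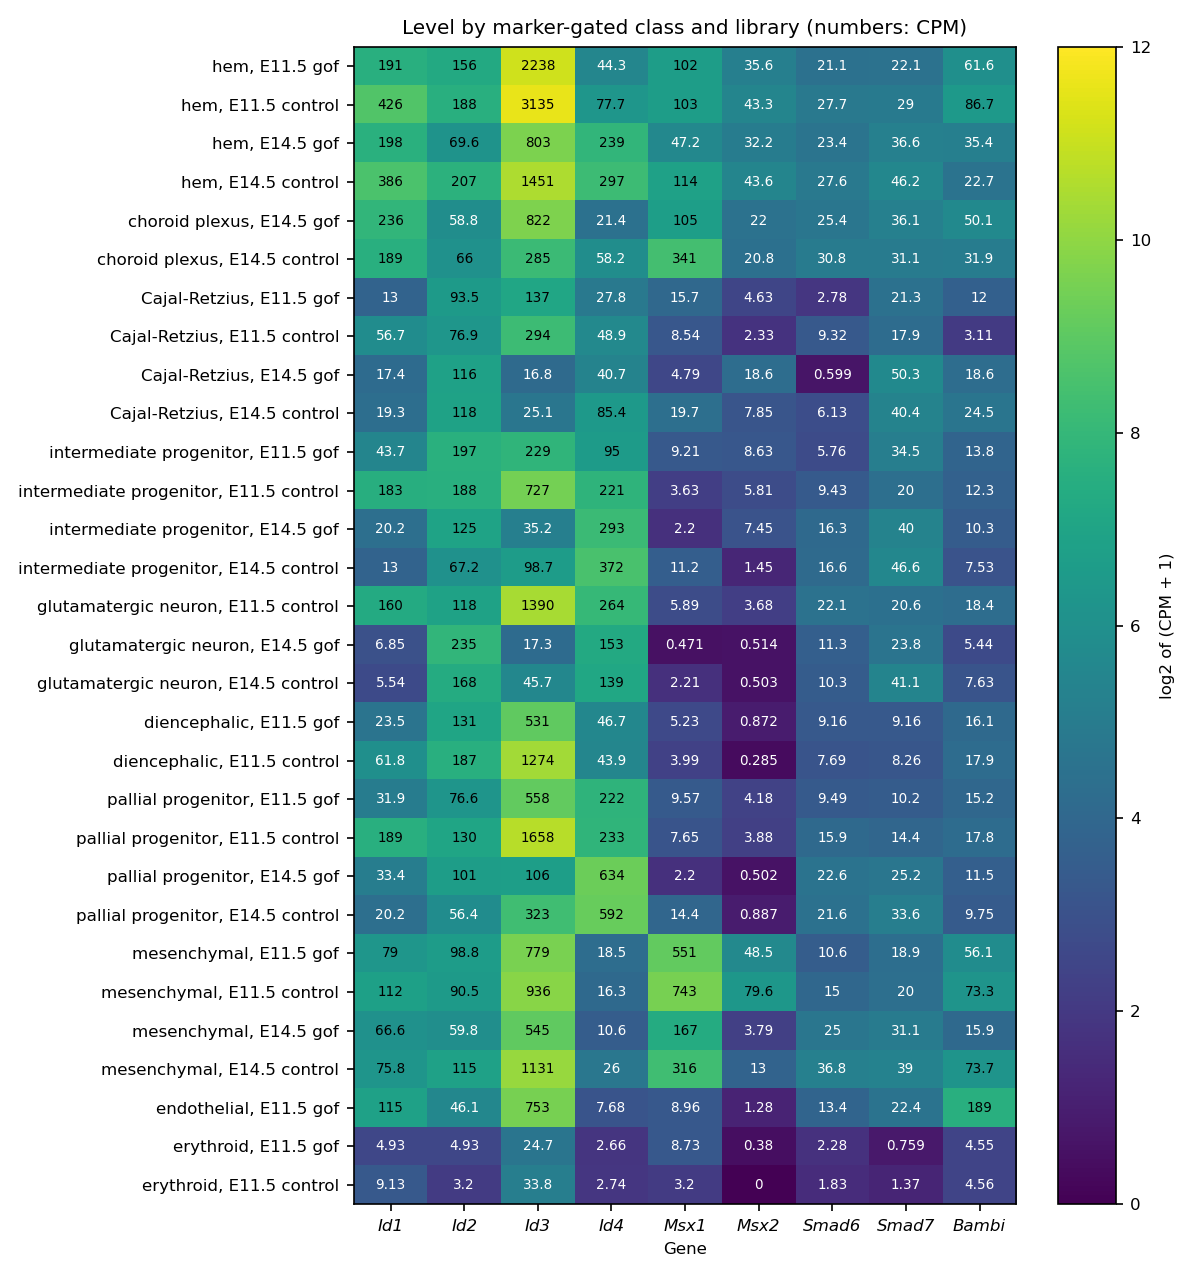
Level of each gene (columns; colour is log2 of CPM + 1, number is CPM) in the regional, progenitor, neuron, endothelial-like and erythroid-like classes of each library (rows) with at least 50 cells, and in mesenchymal-like cells of all 4 libraries. Msx1 peaks in mesenchymal-like and choroid plexus-like cells, Id3 in E11.5 hem-like cells, Id4 in E14.5 pallial progenitor-like cells and Bambi in E11.5 gof endothelial-like cells.

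The grid of levels by class orders each gene over the tissue. Id1 was at its highest in hem-like cells of E11.5 control (426 CPM) and E14.5 control (386 CPM), followed by choroid plexus-like cells of E14.5 gof (236 CPM), and it was among its lowest in glutamatergic neuron-like cells of E14.5 (6.85 CPM in gof, 5.54 CPM in control) and in erythroid-like cells of E11.5 (4.93 CPM in gof, 9.13 CPM in control), which overlap. Id3 ran from 3135 CPM in E11.5 control hem-like cells down to 16.8 CPM in E14.5 gof Cajal-Retzius-like cells, and the last of these did not differ from glutamatergic neuron-like cells of the same library (17.3 CPM) beyond counting error. Outside erythroid-like cells, Id2 ran from 235 CPM in E14.5 gof glutamatergic neuron-like cells to 36.4 CPM in E11.5 gof immune-like cells. The latter are 60 cells that the grid does not draw. Id4 was at its highest in pallial progenitor-like cells of E14.5, with 634 CPM in gof and 592 CPM in control, and had 18.5 CPM in gof and 16.3 CPM in control mesenchymal-like cells of E11.5.
Msx1 was at its highest in E11.5 mesenchymal-like cells, then in choroid plexus-like cells of E14.5 control (341 CPM) and in E14.5 control mesenchymal-like cells (316 CPM). Msx2 was also at its highest in E11.5 mesenchymal-like cells, with 48.5 CPM in gof and 79.6 CPM in control, followed by control hem-like cells with 43.6 CPM at E14.5 and 43.3 CPM at E11.5, which did not differ beyond counting error. Smad6 had 36.8 CPM in E14.5 control mesenchymal-like cells and 30.8 CPM in E14.5 control choroid plexus-like cells, which overlap. Smad7 was at its highest in E14.5 gof Cajal-Retzius-like cells (50.3 CPM), where Smad6 had 0.599 CPM. Bambi had 189 CPM in the 120 endothelial-like cells of E11.5 gof, then 86.7 CPM in E11.5 control hem-like cells.

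Over the 34 sums of a library and a class with at least 50 cells, the closest pairs of members were Id1 with Id3 and Msx1 with Msx2. Id1 and Id3 had a Pearson correlation of log2(CPM + 1) of 0.86, and Msx1 and Msx2 one of 0.76, while Id4 and Msx1 stood at -0.25. Sums of 1 library share its depth and composition, so these are descriptions. Of 12814 other genes, those most like Id1 were Prtg, Mecom (0.87 each) and Id3, and those most like Id4 were Ttyh1 (0.95), Sox6 (0.95) and Galnt16 (0.93). Msx2 was most like Sulf2 (0.88) and Bmp4 (0.87), and Msx1 most like Tcea3 (0.89) and Vasn (0.87). Id3 was most like Dtd2 (0.90), Id2 like Marcksl1 (0.91), Smad6 like Dzip1l (0.88), Smad7 like Fmnl2 (0.95) and Bambi like Fkbp11 (0.77).

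Shares of cells with a UMI were read after each cell was thinned to 3000 UMIs. Id1 was seen in 14.7% (13.7 to 15.8, exact binomial) of E11.5 gof and 35.2% (33.9 to 36.6) of E11.5 control neural cells, and Id3 in 58.8% of gof and 79.0% of control cells. Without thinning, Id1 was seen in 23.1% of gof and 55.1% of control cells and Id3 in 67.1% of gof and 86.6% of control cells. Erythroid-like cells of E11.5, which should lack these genes, had a UMI of Id1 in 0.939% of gof and 1.25% of control cells and of Id3 in 5.63% of gof and 10.6% of control cells, at median depths of 11449 and 13052 UMIs before thinning; the neural medians were 5490 in gof and 8158 in control. The neural shares of both genes are above that level.
Msx1 was seen in 8.5% of gof and 6.99% of control neural cells at E11.5 and in 66.6% of gof and 75.4% of control mesenchymal-like cells, against 1.88% of gof and 0% of control erythroid-like cells. A count of 0 in 160 cells allows a share of up to 2.28%. At E14.5 Msx1 was seen in 1.49% (1.17 to 1.87) of gof and 5.72% (5.16 to 6.33) of control neural cells, and unthinned in 4.65% of gof and 16.8% of control cells. Id3 was seen in 13.8% of gof and 27.7% of control neural cells of E14.5, and Id1 in 7.14% of gof and 7.32% of control cells. Glutamatergic neuron-like cells of the same libraries, a class with low levels of these genes, had Msx1 in 0.137% of gof and 0.258% of control cells, Id3 in 2.4% of gof and 7.09% of control cells, and Id1 in 1.03% of gof and 0.838% of control cells. Their median depths were 13715 UMIs in gof and 14273 UMIs in control, against 14017.5 UMIs in gof and 12909 UMIs in control for all neural cells. At this depth Smad6 was seen in 2.67% of gof and 4.24% of control neural cells of E11.5, and Msx2 in 3.48% of gof and 3.3% of control cells. Erythroid-like cells had Smad6 in 0.939% of gof and 0% of control cells and Msx2 in 0% of both, which allows up to 1.72% in gof and 2.28% in control; the interval of Smad6 in gof erythroid-like cells reached 3.35%, so its gof neural share could not be told apart from background at this depth.

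**Figure D5:**
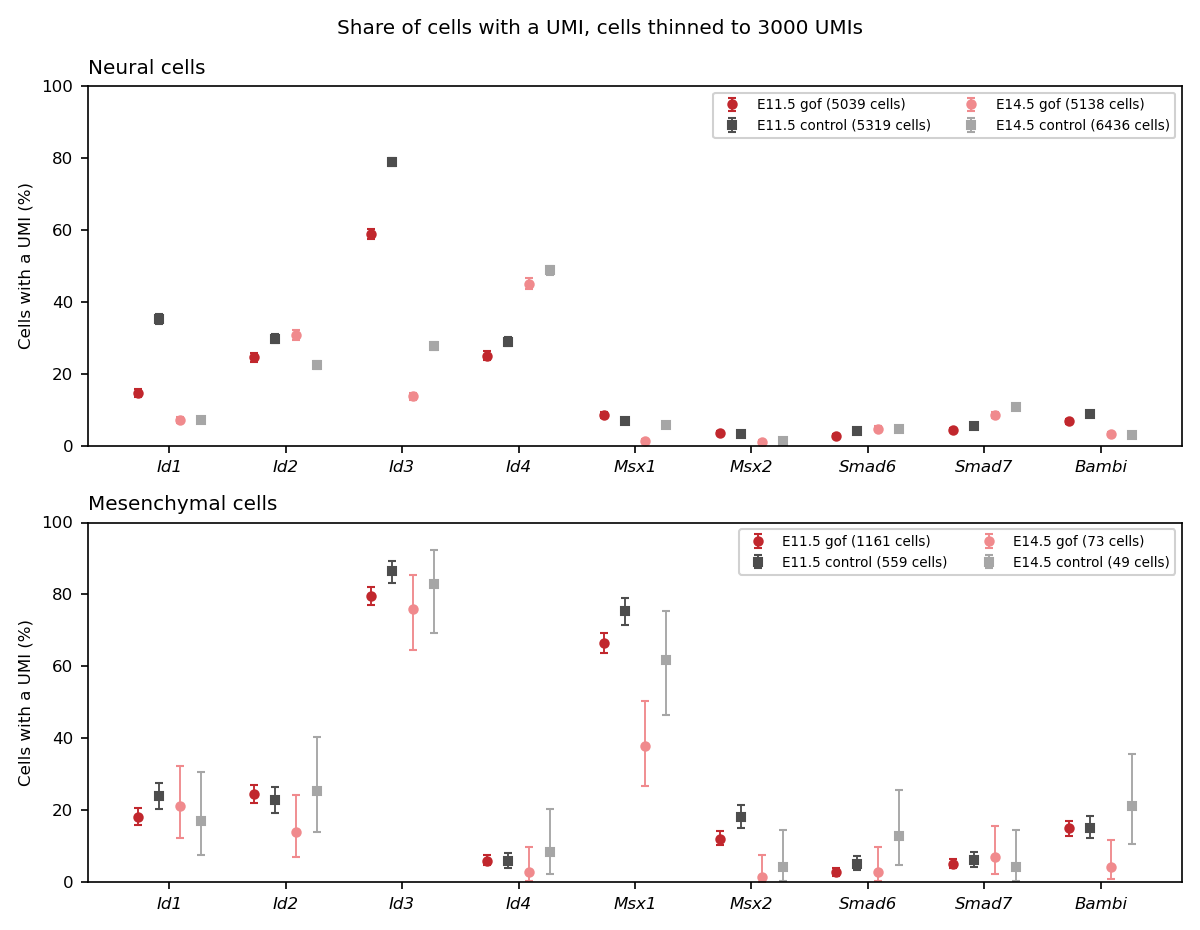
Share of cells with at least 1 UMI of each gene (%), after thinning to 3000 UMIs, in neural (top) and mesenchymal-like cells (bottom) of the 4 libraries, gof as circles and control as squares; bars are exact 95% binomial intervals and the legend counts cells before shallower ones were left out. Id1 and Id3 are in fewer E11.5 gof than E11.5 control neural cells, and Msx1 in fewer E14.5 gof than E14.5 control neural cells.

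In neural cells of the plot of shares, Id1 is lower in gof at E11.5, Id3 at both ages and Msx1 at E14.5. The shares of Id1 at E14.5 lie close together while its levels were 35.4 CPM (gof) and 46.3 CPM (control). Cells under 3000 UMIs left out of the neural shares numbered 500 in E11.5 gof, 81 in E11.5 control, 252 in E14.5 gof and 250 in E14.5 control.

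Between the ages, Id3, Id1, Bambi and Msx2 were lower at E14.5 and Id4 and Smad7 were higher, in neural cells of both genotypes. In gof Id3 had 116 CPM at E14.5 and 917 CPM at E11.5, and Bambi 11.7 CPM at E14.5 and 28.3 CPM at E11.5. In control Id3 had 258 CPM at E14.5 and 1843 CPM at E11.5, Id1 46.3 CPM at E14.5 and 232 CPM at E11.5, and Id4 352 CPM at E14.5 and 162 CPM at E11.5. Msx1 was parted by genotype: 6.47 CPM at E14.5 and 43.7 CPM at E11.5 in gof, and 27.5 CPM at E14.5 and 38.5 CPM at E11.5 in control.
The scale also differed between the ages. Ribosomal protein genes took 16.1% of UMIs at E14.5 and 25% at E11.5 in gof neural cells and 12.9% at E14.5 and 25% at E11.5 in control neural cells, whose part in the values was not tested, and the median of all genes was 0.55 higher in gof and 0.60 higher in control on the log2 scale. Relative to that median, control neural cells had Id3 at -3.44, Id1 at -2.90, Bambi at -2.34, Msx2 at -1.89, Id2 at -1.11, Msx1 at -1.07, Smad6 at -0.64, Smad7 at 0.38 and Id4 at 0.51. On that scale Id4 and Smad7 were within 1.5-fold in control. In gof neural cells Msx1 was at -3.13 and Id4 at 0.91. On the unshifted scale 2 members were higher and 4 lower of 9 in control, beside 51% and 7.67% of 9655 genes, and 3 higher and 5 lower of 9 in gof, beside 47.8% and 8.38% of 9438 genes. Within control hem-like cells Id1 had 386 CPM at E14.5 and 426 CPM at E11.5, a log2 ratio of -0.14, and was at -0.71 relative to the all-gene median of 0.57 there, while in control pallial progenitor-like cells it had 20.2 CPM at E14.5 and 189 CPM at E11.5.

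Upstream of these genes, the BMP ligands were mixed in tdTomato-positive neural cells. At E14.5 Bmp4 had 49.6 CPM in gof and 26.5 CPM in control, Bmp5 61.3 CPM in gof and 27.6 CPM in control, and Bmp7 74.3 CPM in gof and 40 CPM in control, while Bmp6 had 9.77 CPM in gof and 54.6 CPM in control: 3 higher and 1 lower of 6 tested of 10. At E11.5 Bmp4 was higher, with 133 CPM in gof and 83.8 CPM in control, and Bmp6 lower, with 58 CPM in gof and 110 CPM in control, of 5 tested, where 5.69% of all genes were higher and 6.81% lower at that age.
Extracellular antagonists were higher at E14.5, 3 of 6 tested of 11 and none lower: Fst, which binds activins and some BMPs, had 141 CPM in gof and 20.1 CPM in control, Sostdc1, a secreted BMP and Wnt modulator, 510 CPM in gof and 114 CPM in control, and Nog, which traps BMP ligands, 25.8 CPM in gof and 15.4 CPM in control. At E11.5 0 of 4 tested were past the limit. Of the 7 receptors, Acvr2b was higher (64.6 CPM in gof, 38.4 CPM in control) and Acvr1 (38.6 CPM in gof, 64.1 CPM in control) and Acvr2a (40.8 CPM in gof, 67.2 CPM in control) were lower at E14.5, of 6 tested, and 0 of 6 at E11.5. Over all E11.5 neural cells Bmpr1b had 20.5 CPM in gof and 31.3 CPM in control. The 5 tested Smads and regulators and the 3 E proteins that Id proteins bind had 0 members past 1.5-fold at either age in these cells. Against the same 6.88% of genes higher and 16.6% lower at E14.5, the ligand and antagonist lists hold 3 higher members each; the lists were not tested.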

How the data were processed

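The authors deposited UMI counts, not normalized, in 1 matrix per library with 21937 features, tdTomato among them. Cell Ranger 7.1.0 and mm10 are named per the submitters' processing notes, while their gene annotation was not given in the sources used here. Ages follow the series text (E11.5, E14.5); the titles give E11 and E14. A barcode stayed in if it held 1000 genes or more and its mitochondrial share did not pass 10%, which removed 1084 barcodes of E11.5 gof, 616 of its control, 691 of E14.5 gof and 775 of its control. Scrublet (scanpy 1.11.5, Python 3.11.15) called 401 doublets in E14.5 gof, 2 in its control and 0 in both E11.5 libraries by its own threshold. The highest scores were therefore removed at 0.8% per 1000 barcodes: 602 in E11.5 gof, 459 in its control, 314 in E14.5 gof and 492 in its control. Ambient RNA was not removed.

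Mesenchymal, endothelial, mural, erythroid and immune gates needed 4 markers with a UMI. Cells that also held 4 of 8 progenitor or 5 of 9 neuron markers were left out as mixed (46 in E11.5 gof, with a median of 19176.5 UMIs, and 195 in E11.5 control, with 25632). Neural cells held at most 3 markers of every non-neural set and at least 2 of 17 neural ones. Within them, gates needed 5 hem, 5 choroid plexus, 4 Cajal-Retzius, 4 intermediate progenitor, 5 glutamatergic, 4 GABAergic or 3 diencephalic markers. Dlx6os1 was not matched, so the GABAergic set has 7 markers. Gate limits, the allowance of 3 markers and the split by 4 Wnt feedback genes were chosen after marker counts had been seen. The members and lists were chosen with earlier results of these data known. Text names all 9 members, from other lists those past 1.5-fold in neural or tdTomato-positive neural cells (at most the 2 highest and 2 lowest per list and age, and the third BMP ligand and antagonist at E14.5, named after its value was seen), and the genes most like each member.

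For each library and class the UMI counts were added up and expressed as CPM, with exact 95% Poisson intervals; shares have exact Clopper-Pearson intervals (scipy 1.17.1). Log2 ratios used a pseudocount of 1 CPM, so they understate changes of low genes. Comparisons at the same class shares used only classes with at least 20 cells on both sides. A gene of at least 10 CPM in either library counted as higher or lower past 1.5-fold, and the script was tested on simulated libraries. A gene that reached 10 CPM in 1 library alone could not be called higher in the other. Among such cases are Msx1 in E14.5 neural, tdTomato-negative, pallial progenitor-like and intermediate progenitor-like cells. Smad6 in E11.5 tdTomato-negative and pallial progenitor-like cells is another. Promoter windows are RefSeq's of GRCm38.p6 and positions GENCODE M21's.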

Additional observations from a re-analysis of the deposited data

Results flagged for a closer look

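Some members lay past 1.5-fold on opposite sides at the 2 ages, gof over control on the log2 scale, in the same class of cells. In pallial progenitor-like cells Id1 was at -2.53 at E11.5 and 0.70 at E14.5, and Id2 at -0.76 and 0.83. In intermediate progenitor-like cells Id1 was at -2.04 at E11.5 and 0.60 at E14.5. In the tdTomato-positive cells of that class at E14.5 Id1 was at -0.54. Neural cells outside the named classes had Id1 at -1.20 at E11.5 and 0.80 at E14.5, and Msx1 at 1.08 and -1.85. At E14.5, 20.4% of gof and 3.33% of control cells in that group had 2 or more tdTomato UMIs. These shares were 8.87% and 2.77% in pallial progenitor-like cells, and 21.7% and 8.39% in intermediate progenitor-like cells. Over all tdTomato-negative neural cells of E14.5, Id1 was at 0.38, within 1.5-fold. The part of this reporter mix in the Id1 values was not tested. In Cajal-Retzius-like cells Msx1 was at 0.81 at E11.5 and -1.84 at E14.5, with overlapping counting intervals at E11.5. With 1 library per group the difference between the ages was not tested, and no group has enough samples to look for one that stands apart.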

How the results depend on the processing

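No alternative turned a called direction. Of the log2 ratios of single members, 551 of the alternative values moved by no more than counting error and 133 by more. In E11.5 mesenchymal-like cells 1 member was past the limit, against 0 with median-ratio scaling or a limit of 2-fold and 2 with the stricter barcode filter, without doublet removal or with gates read on thinned cells. A limit of 2-fold left 1 of 3 in E11.5 and 1 of 4 in E14.5 tdTomato-positive cells, and a limit of 50 CPM left 1 of 2 in E14.5 neural cells. For tdTomato-positive over tdTomato-negative cells, a limit of 2-fold left 5 of 8 in E11.5 control and 5 of 8 in E14.5 gof, and equal class shares left 5 of 8 in E11.5 gof, 4 of 8 in E11.5 control, 5 of 8 in E14.5 gof and 4 of 7 in E14.5 control. Shares of cells depend on depth: 67 of 72 unthinned shares lay outside the interval of the thinned one. Classes gated on thinned cells moved 125 of 234 levels beyond counting error. Leaving out a library was not possible with 1 per group. No paired analysis was possible because each group has 1 library and its cells share no replicate number.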
